A study of Mus musculus with 3 samples.

Results

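The probes around 4 genes of the neurotrophin and stress hormone systems, Bdnf, Nr3c1, Fkbp5 and Crh, were described on a mouse DNA methylation array. They were the 193 of 409597 placed probes that lay in 4 intervals of mouse build mm9, chosen by position: 70 kb of chromosome 2 for Bdnf, 100 kb of chromosome 18 for Nr3c1, 100 kb of chromosome 17 for Fkbp5 and 30 kb of chromosome 3 for Crh. Runs of 3 or more probes with no more than 500 bp from one start to the next were joined into tiled regions. The 193 probes formed 8 of the 28880 tiled regions of the array, with no probe left over. Bdnf held 95 probes in 3 regions, Nr3c1 58 in 2, Fkbp5 24 in 2 and Crh 16 in 1. No annotation of mm9 was used, so a region is named by the gene of its interval and is not assigned to an exon, an intron or a promoter.

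The DNA came from the frontal cortex of C57BL/6 males aged 2 months that had received no treatment, in 3 pools of 3 mice each. Methylated fragments were immunoprecipitated with an antibody against 5-methylcytosine, which per the labels does not bind hydroxymethylated DNA. The bound fraction was labelled with Cy5 and the input with Cy3, and both were hybridised to 1 array per pool. The samples form 1 group, so the comparisons were of bound with input DNA and of regions with each other. All arrays had the same dye orientation, so a dye effect cannot be told apart from enrichment. DNA of a whole tissue averages over its cell types.

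Bdnf encodes brain-derived neurotrophic factor, a secreted protein that acts through the receptor TrkB on neuronal survival and synaptic plasticity. Its gene has several promoters, each with its own first exon spliced to a shared coding exon, and their use differs between tissues and with neuronal activity. Crh encodes corticotropin-releasing hormone, which starts the hormonal stress response in the hypothalamus and is also made by interneurons of the cortex. Nr3c1 encodes the glucocorticoid receptor, on which the stress hormone corticosterone acts. Fkbp5 encodes a co-chaperone that lowers the receptor's affinity for hormone and is itself induced by glucocorticoids. Methylation of cytosines in CpG dinucleotides is generally low at active CpG-rich promoters and high elsewhere in the genome.

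RefSeq promoter windows, each 300 bases from 250 before to 50 after an annotated start on GRCm38.p6, matched Bdnf with 7 windows on the plus strand and Fkbp5 with 1 on the minus strand. Going along the chromosome, the distances between successive Bdnf starts were 2332, 15404, 591, 1382, 14974 and 13538 bp. Windows 1, 3 and 6 are shown as 1 example from each of 3 of the separate parts of the gene, since starts 1 and 2, and starts 3 to 5, lie close together. Window 7, which also lies apart, is not shown. The Fkbp5 window is shown for contrast in CpG content. Capitals mark CpG dinucleotides, which the antibody can bind when methylated.
Bdnf window 1 (chr2:109674450-109674749, GRCm38.p6, plus strand): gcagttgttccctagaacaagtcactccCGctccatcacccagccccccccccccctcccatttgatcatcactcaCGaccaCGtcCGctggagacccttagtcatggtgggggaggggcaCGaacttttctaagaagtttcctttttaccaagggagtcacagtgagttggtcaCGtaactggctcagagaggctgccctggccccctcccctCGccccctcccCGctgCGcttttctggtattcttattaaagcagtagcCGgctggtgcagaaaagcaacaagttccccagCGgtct
Bdnf window 3 (chr2:109692186-109692485, GRCm38.p6, plus strand): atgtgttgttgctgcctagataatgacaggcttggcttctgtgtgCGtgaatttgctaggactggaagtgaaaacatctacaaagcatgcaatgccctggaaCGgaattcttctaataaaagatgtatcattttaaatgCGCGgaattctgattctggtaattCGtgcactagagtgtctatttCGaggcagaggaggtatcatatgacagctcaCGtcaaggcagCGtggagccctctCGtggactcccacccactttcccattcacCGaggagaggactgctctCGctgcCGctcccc
Bdnf window 6 (chr2:109709133-109709432, GRCm38.p6, plus strand): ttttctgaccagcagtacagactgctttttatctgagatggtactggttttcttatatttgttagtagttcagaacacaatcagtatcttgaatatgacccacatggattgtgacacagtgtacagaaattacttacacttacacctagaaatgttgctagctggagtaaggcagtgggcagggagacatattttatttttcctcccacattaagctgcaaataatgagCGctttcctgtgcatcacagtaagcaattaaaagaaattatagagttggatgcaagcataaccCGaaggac
Fkbp5 window (chr17:28486100-28486399, GRCm38.p6, minus strand): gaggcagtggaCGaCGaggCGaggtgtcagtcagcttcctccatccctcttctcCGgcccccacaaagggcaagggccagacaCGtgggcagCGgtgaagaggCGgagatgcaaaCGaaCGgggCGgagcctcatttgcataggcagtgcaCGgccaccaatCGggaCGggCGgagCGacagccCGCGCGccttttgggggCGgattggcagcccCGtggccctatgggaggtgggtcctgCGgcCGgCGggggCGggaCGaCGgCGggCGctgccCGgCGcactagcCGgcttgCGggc

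The windows differed in how many CpGs they held. The 7 Bdnf windows held 11, 7, 12, 10, 13, 2 and 8 CpGs in order of position, against a median of 7 and quartiles of 3 and 20 over 32817 windows of all genes. Bdnf windows 1 and 3, with 11 and 12 CpGs, stood at the 60.4th and 62.1st percentile, and window 6, with 2, at the 23.3rd. The Fkbp5 window held 32 CpGs with a GC content of 70.7% and stood at the 91.4th percentile. Short motifs were searched on both strands. TGACG, the core of the cAMP response element through which neuronal activity acts on Bdnf, was present in window 3 alone of the 8, where it occurs on the minus strand and contains 1 of the CpGs, and in 20.8% of all windows. The full palindrome TGACGTCA was in none of the 8 and in 1.8% of all windows. AGAACA, the core of the glucocorticoid response element, was in Bdnf windows 1, 2 and 6 and in 19% of all windows. CANNTG, the E-box, was in every Bdnf window but the second, in the Fkbp5 window, and in 72.3% of all windows. TATAAA was in none of the 8 and in 13.6% of all windows. A match describes letters only. The windows were not placed on the tiled regions, because their builds differ.

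The value of a probe is the log2 of bound over input processed signal, relative to the median probe of its array, and that of a region is the mean over its probes. Values are given for replicates 1, 2 and 3 in that order, errors are SDs over the 3 arrays, and calls are from limma with Benjamini-Hochberg adjustment over the whole array at 0.05. The zero is the array's median probe and not an unmethylated reference. The mode of the probe values lay 0.70, 0.81 and 0.64 above the median, so about that much would be taken from every value with the mode as zero. A fragment with more methylated CpGs is captured more readily, so the ratio is not a percentage. Across probes the arrays correlated with r of 0.73 to 0.77. Input was above background on all arrays for 126 of the 193 probes (65.3%, against 65.1% of all probes) and both channels for 70 (36.3% against 42.3%). A further 25 probes (13.0%, against 14.3%) were above background in neither channel on any array. Such a dark probe has no measured ratio, but its 2 floor values give a number, with a median of 0.65 for the dark probes here and 0.62 for all dark probes. These medians lie close to the mode of 0.70, 0.81 and 0.64. Whether dark probes set the mode was not tested, and the mode is not an unmethylated reference either. Means over probes with input, or with both channels, above background keep the zero of all probes. Over the whole array the median probe of these 2 sets stood at -0.17 and 0.45.

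Bdnf DNA was recovered less than that of the median probe in each of its 3 tiled regions, and none of its regions was higher. Over the array 38.1% of regions were lower and 27.9% higher, and over the 8 regions of the 4 genes 4 were lower and 2 higher. Among single probes, 52 of the 95 at Bdnf were lower and 10 higher, which is 54.7% and 10.5%, against 23.6% and 22.4% of all probes. At 16 Bdnf probes input was above background on all arrays and bound DNA on none, so that their ratio is an upper limit and is low by the way they were picked out. Of the 10 higher probes, 6 were dark. Leaving out replicate 1, 2 or 3 left 5, 2 or 3 higher Bdnf probes, while the share of all probes called higher fell from 22.4% to 15.4%, 10.4% or 13.3%.

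The first Bdnf region, at chr2:109513642-109517406, was 3765 bp long and held 42 probes, the most of any region of the 4 genes. Its values were -1.37, -1.29 and -0.996, all far below zero, and their mean of -1.22 ± 0.20 (n = 3) is 2.33-fold lower than the median probe (limma adjusted p = 5.42e-06). It lay at the 3.91st percentile of all tiled regions and at the 4.68th of the 3099 regions over 1800 bp, of which 54.5% were lower and 15.8% higher. In it 27 probes were lower, 2 higher and 13 not past the test. Bound DNA was above background in 59 of its 126 probe measurements and input in 109. Over the 35 probes with input above background on all arrays the mean was -1.45 ± 0.22, and over the 11 with both channels above background it was -0.53 (limma adjusted p = 7.93e-05).

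Within this region recovery was lowest at the low-coordinate end. The side with lower coordinates averaged -1.74 over 21 probes and the other side -0.70 over 21. The difference was 1.26, 1.15 and 0.73 on the arrays, with the same sign on each, and averaged 1.05 ± 0.28 (limma adjusted p = 0.00126). Over all 25860 regions that could be split, 26.7% rose in this direction and 25.9% fell, and among the 8 regions 1 rose and 2 fell. In stretches of 500 bp the course was not even. The first, the second, the fourth and the sixth stretches were at -2.29 ± 0.44, -1.81 ± 0.43, -2.03 ± 0.15 and -1.88 ± 0.39, and the fifth, at -0.12 ± 0.28, was not past the test (limma adjusted p = 0.577). The last, of 3 probes, was the one Bdnf stretch called higher, at 0.49 ± 0.34 (limma adjusted p = 0.0365), but its highest probe, at 0.96, was dark. Its other probes, measured in both channels, were at 0.53 and -0.03 and did not pass the test (limma adjusted p = 0.129 and 0.926). One probe inside the low stretches stood apart. At chr2:109516831-109516875 the values were 2.04, 2.08 and 1.34, or 1.82 ± 0.41 (limma adjusted p = 0.00579), while the probes on its sides were at -2.22 and -1.40. It was bright in both channels, with a log2 signal of 13.89 for input and 15.55 for bound DNA, so it is not a dark probe. The medians over all probes were 9.31 and 8.73. Whether its signal comes from this position alone was not tested. The lowest probe measured in both channels, from 109514331, was at -2.16 ± 0.30 (limma adjusted p = 0.00403).

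The second Bdnf region, chr2:109531411-109534837, held 39 probes over 3427 bp and began 14005 bp after the end of the first. Its values of -0.86, -0.77 and -0.78 were the most even of any of the 8 regions between arrays, and their mean of -0.80 ± 0.05 is 1.74-fold lower than the median probe (limma adjusted p = 7.55e-05). This is the 14.2nd percentile of all regions and the 21.3rd of the long ones. In it 19 probes were lower, 5 higher and 15 not past the test, and 5 were dark. Over the 28 probes with input above background the mean was -1.21 ± 0.06. Its sides were at -0.66 and -0.92, a difference of -0.26 ± 0.41 that did not pass the test (limma adjusted p = 0.321) and turned to 1.31 over probes above background in both channels (limma adjusted p = 3.59e-06). Stretches of 500 bp were lower in 6 of 7 cases, down to -1.45 ± 0.14 at the high-coordinate end. The highest probe measured in both channels, at chr2:109533914-109533958, had 2.27, 2.99 and 1.88, or 2.38 ± 0.56 (limma adjusted p = 0.00451). The probe after it was at -1.34 and the one before it was dark. Before the dark probe, the one at chr2:109533770-109533814 was measured in both channels and also higher, at 0.88 ± 0.17 (limma adjusted p = 0.0263). So was the one at chr2:109532897-109532956, at 1.52 ± 0.59 (limma adjusted p = 0.0128), with input above background on 2 arrays. The lowest probe measured in both channels, at chr2:109534459-109534503, was at -2.50 ± 0.41 (limma adjusted p = 0.00386).

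The third Bdnf region, chr2:109548492-109549685, was the shortest of the 3, with 14 probes over 1194 bp, and began 13655 bp after the second. Its values of -0.97, -0.58 and -0.43 were below zero on each array, with a mean of -0.66 ± 0.28, or 1.58-fold lower (limma adjusted p = 0.00088). It was measured least well, with bound DNA above background in 5 of 42 measurements and input in 18. The 3 probes called higher in it were dark, and 6 were lower. Over the 4 probes with input above background on all arrays the mean was -1.63 ± 0.38. The first stretch of 500 bp was at -1.06 ± 0.18 and lower, and the second at -0.26 ± 0.32 and not past the test (limma adjusted p = 0.241).

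**Figure D1:**
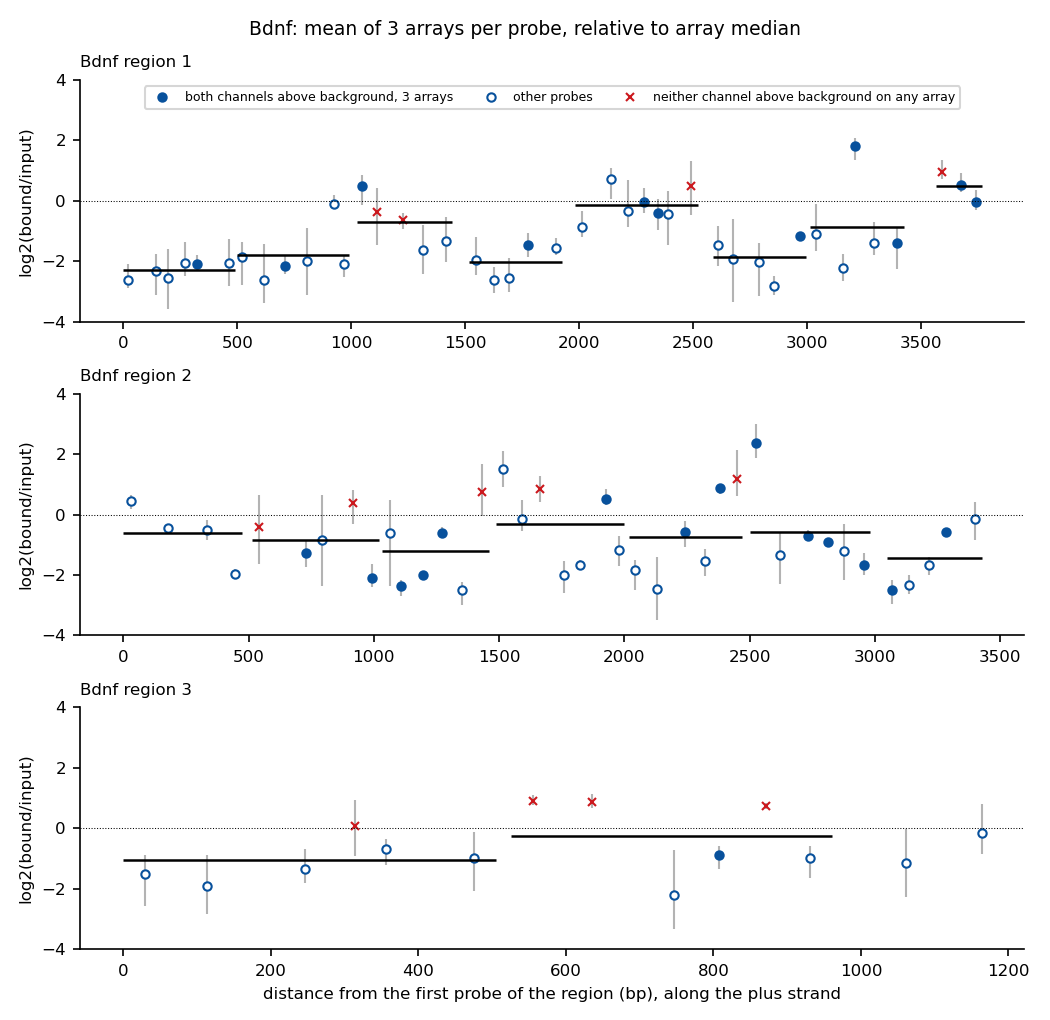
Log2 ratio of bound to input DNA, with the array median at 0 (vertical axis), against distance from the start of each of the 3 Bdnf tiled regions in bp (horizontal axis). Filled circles are means over 3 arrays of probes above background in each channel on every array, open circles other probes, red crosses probes above background in neither channel on any array, grey lines the range over arrays and black bars the means of 500 bp stretches with at least 3 probes. The lowest stretch of the first region is its first, at -2.29; its last, at 0.49, averages 3 probes of which the highest is a red cross, and the red crosses lie mostly above zero.

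The Bdnf regions were then set against each other as alternative parts of 1 gene. Taken over all probes, the second region was above the first by 0.52, 0.52 and 0.21, a mean of 0.42 ± 0.18 with a 95% interval from limma of 0.07 to 0.77 (limma adjusted p = 0.0363). The third was above the first by 0.41, 0.71 and 0.57, a mean of 0.56 ± 0.15 with an interval of 0.21 to 0.91 (limma adjusted p = 0.00743). The third differed from the second by -0.11, 0.19 and 0.35, which change sign between arrays, with a mean of 0.14 ± 0.23 and an interval of -0.22 to 0.50 (limma adjusted p = 0.470). Over all 54815 pairs of regions whose midpoints lay within 70 kb, 32.8% differed upward and 31.8% downward. The order of the 3 regions depended on which probes were counted. With input above background the second minus the first was 0.24 (limma adjusted p = 0.206), the third minus the first -0.18 (limma adjusted p = 0.416) and the third minus the second -0.42 (limma adjusted p = 0.0521). With both channels above background the second lay below the first by -0.29 (limma adjusted p = 0.0465). Without replicate 1 or 2 the second minus the first was 0.37 in either case and was not past the test (limma adjusted p = 0.101 and 0.196), and without replicate 2 the third minus the first was 0.49 (limma adjusted p = 0.0812). No order of the 3 regions thus held under each choice of probes, whereas each region was lower than the median probe under each alternative that gave a value.

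At Nr3c1 recovery changed along the second of its 2 regions. The first region, chr18:39646672-39648101, held 19 probes over 1430 bp. Its values were -0.99, -0.34 and -0.28, with replicate 1 well below the other 2, and the mean of -0.54 ± 0.39 is 1.45-fold lower than the median probe (limma adjusted p = 0.00682). In it 6 probes were lower, 1 higher and 12 not past the test, 5 probes were dark, and bound DNA was above background in 12 of 57 measurements. Over the 7 probes with input above background the mean was -1.12 ± 0.13. Without replicate 1 the region was at -0.31 and still lower (limma adjusted p = 0.0482). The lowest stretch was the first, at -1.11 ± 0.24.

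The second Nr3c1 region, chr18:39648806-39652170, began 705 bp further on and held 39 probes over 3365 bp. As a whole it was at -0.13, -0.17 and -0.29, a mean of -0.20 ± 0.08 that did not pass the test (limma adjusted p = 0.153). With the mode as zero it was at -0.92 and lower (limma adjusted p = 3.15e-07), as were 76.9% of all regions. That mean joins 2 unlike sides. The side with lower coordinates averaged 0.59 and the other -0.95, and the difference was -1.67, -1.42 and -1.54 on the arrays, or -1.55 ± 0.12 (limma adjusted p = 8.06e-05). This was the widest difference between sides in the 8 regions, and it held over probes with input above background (-2.10) and with both channels above background (-1.93). The second and the third stretches were higher, at 1.11 ± 0.23 and 0.68 ± 0.32, and the fifth and sixth lower, at -1.04 ± 0.46 and -1.65 ± 0.16. On the high side the probe at chr18:39649560-39649604 was the highest of those measured in both channels, at 2.51, 2.74 and 2.07, or 2.44 ± 0.34 (limma adjusted p = 0.00382). It has no well-measured neighbour, since the probe before it had bound DNA above background on no array and the one after it was dark. On the low side the probe from 39651279 was the lowest of those measured in both channels, at -1.96 ± 0.14 (limma adjusted p = 0.00406). Over the 58 Nr3c1 probes 17 were lower (29.3%, against 23.6% of all probes) and 10 higher (17.2%, against 22.4%), and 2 of the 10 were dark. Among its 21 probes measured in both channels on all arrays, 7 were lower and 6 higher, against 15.5% lower and 38.2% higher among all 173292 such probes. Leaving out replicate 1, 2 or 3 left 3, 2 or 3 higher Nr3c1 probes, when 15.4%, 10.4% or 13.3% of all probes were higher. Without replicate 3 there were 10 lower ones, when 15.2% of all probes were lower.

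The Nr3c1 regions were compared in the same way. The second was above the first by 0.85 on replicate 1, 0.18 on replicate 2 and -0.01 on replicate 3. These averaged 0.34 ± 0.45, with a limma interval of -0.06 to 0.74 (limma adjusted p = 0.128). Over probes with input above background, 7 in the first region and 24 in the second, the difference was 0.90 (limma adjusted p = 0.000511). Over those with both channels above background it was 1.25 (limma adjusted p = 2.48e-07), but this rests on 4 of 19 probes in the first region and 17 of 39 in the second.

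Fkbp5 held the most strongly recovered region of the 4 genes. Its first region, chr17:28578446-28579787, had 14 probes over 1342 bp. The values were 1.27, 1.17 and 0.79, above zero on each array, and the mean of 1.08 ± 0.25 is 2.11-fold higher than the median probe (limma adjusted p = 1.89e-05). It lay at the 92.3rd percentile of all regions. In it 11 of 14 probes were higher and none lower, and bound DNA was above background in all 42 measurements and input in 40. The stretches of 500 bp were at 1.36 ± 0.30, 1.02 ± 0.23 and 0.80 ± 0.30, and each was higher. The side with lower coordinates averaged 1.37 and the other 0.85. The difference was -0.66, -0.31 and -0.57, or -0.52 ± 0.18 (limma adjusted p = 0.0437), and it was -0.44, -0.62 or -0.49 and not past the test without replicate 1, 2 or 3 (limma adjusted p = 0.116, 0.0852 and 0.151). The highest probe measured in both channels, at chr17:28578446-28578493, was at 1.55 ± 0.32 (limma adjusted p = 0.00719).

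The second Fkbp5 region, chr17:28623127-28624081, lay 43340 bp further on, with 10 probes over 955 bp. It was at 0.24, -0.02 and 0.01, on either side of zero, with a mean of 0.08 ± 0.14 that did not pass the test (limma adjusted p = 0.596). It was called higher with loess, at 0.42 (limma adjusted p = 0.00414), and with the series matrix, at 0.29 (limma adjusted p = 0.0352), and lower with the mode as zero, at -0.64 (limma adjusted p = 8.62e-05). It was also well measured, with bound DNA above background in 25 of 30 measurements. One of its probes was lower, at chr17:28623441-28623496, with -1.15, -1.10 and -1.55, or -1.27 ± 0.25 (limma adjusted p = 0.0104), and the other 9 did not pass the test. The second region was below the first by -1.03, -1.19 and -0.78 on the arrays. The mean difference of -1.0 ± 0.21 had a limma interval of -1.35 to -0.65 (limma adjusted p = 0.000104), and it was -1.07 over probes with input above background and -0.81 over those with both channels above background. Over the 24 Fkbp5 probes 11 were higher (45.8%, against 22.4% of all probes) and 1 lower (4.2%, against 23.6%). Of its 18 probes measured in both channels on all arrays, 9 were higher and 0 lower. Among all such probes 38.2% were higher and 15.5% lower. Leaving out replicate 1, 2 or 3 left 6, 5 or 8 higher Fkbp5 probes, when 15.4%, 10.4% or 13.3% of all probes were higher.

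Crh had 1 tiled region, chr3:19595177-19596559, with 16 probes over 1383 bp. Its values of 0.83, 0.56 and 0.04 were spread widely, with replicate 3 close to zero. The mean of 0.48 ± 0.40 is 1.39-fold higher than the median probe and passed the test (limma adjusted p = 0.0135), at the 78.7th percentile of all regions. Without replicate 1 the mean was 0.30 and did not pass (limma adjusted p = 0.0745), nor did the 0.28 of the series matrix values (limma adjusted p = 0.139), and with the mode as zero it turned to -0.24 (limma adjusted p = 0.122). Of its 16 probes 3 were higher (18.8%, against 22.4% of all probes) and none lower (against 23.6%), and 1 of the 3 was dark. Without replicate 1 no Crh probe was higher, and without replicate 2 or 3 there was 1. The share of all probes called higher was then 15.4%, 10.4% or 13.3%. Over the 8 probes with input above background the mean was 0.59 ± 0.33 (limma adjusted p = 0.000252). The region was not even, since its outer stretches were higher at 0.64 ± 0.44 and 0.76 ± 0.51 while the middle one was at 0.00 ± 0.31 (limma adjusted p = 0.992). The highest probe measured in both channels, at chr3:19596500-19596559, was at 1.19 ± 0.57 (limma adjusted p = 0.0244).

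**Figure D2:**
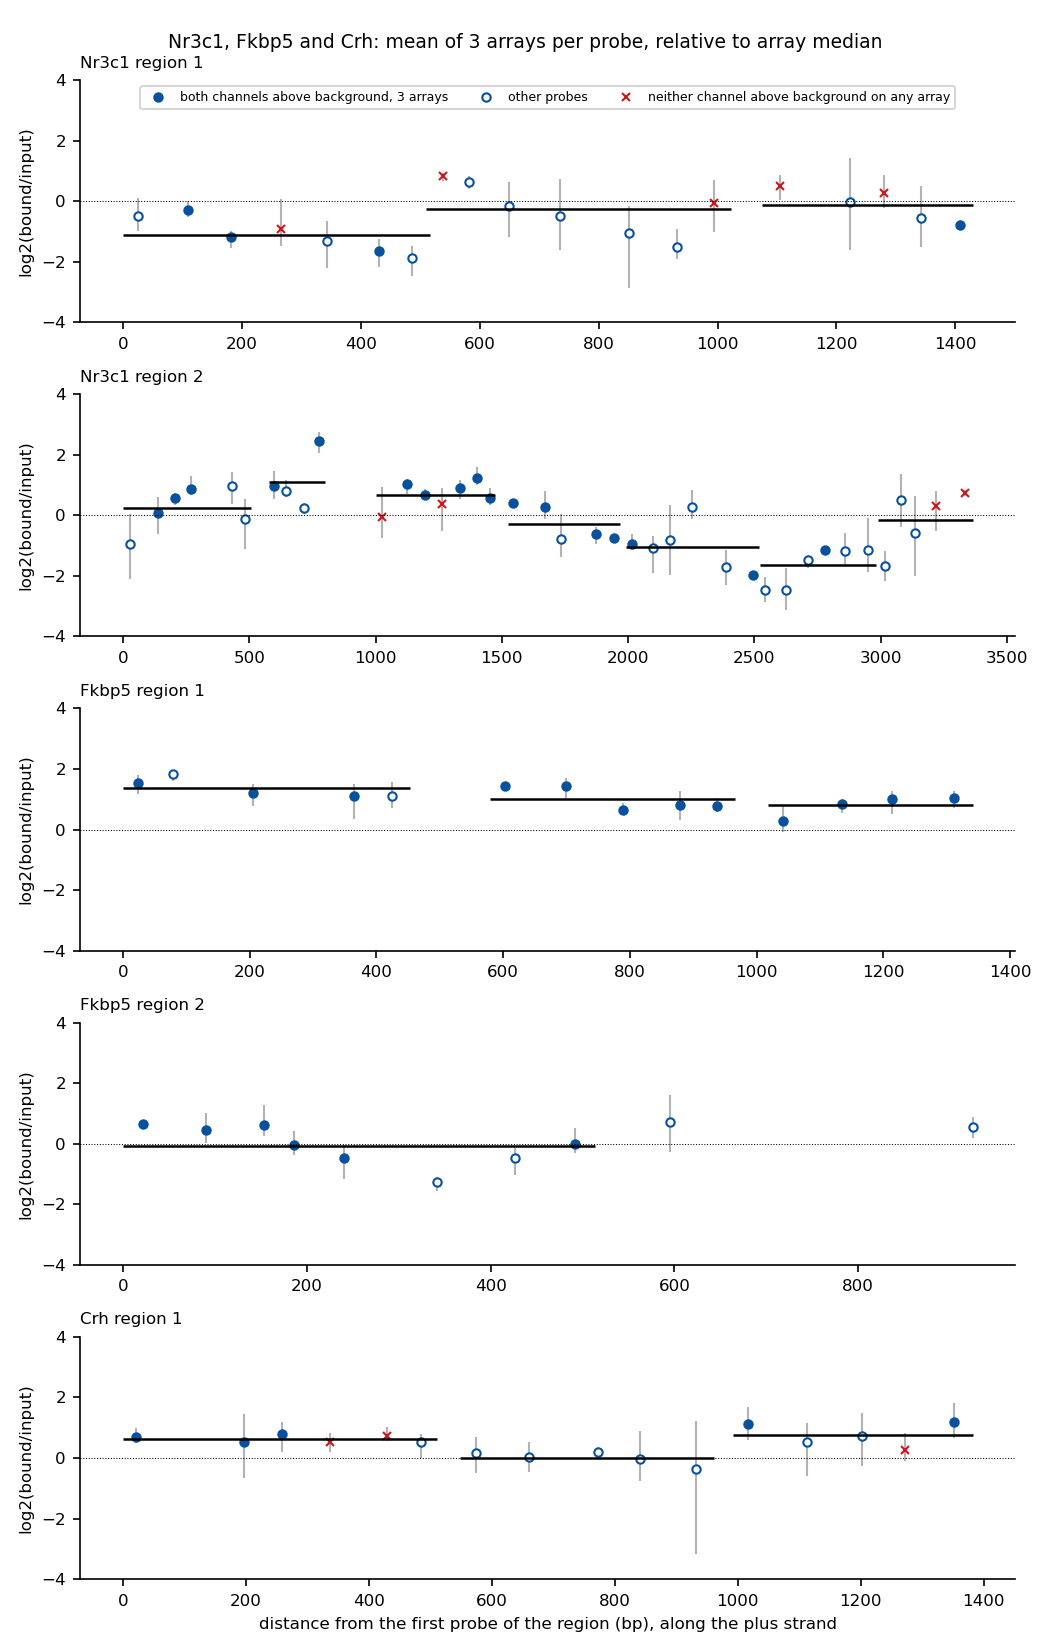
The same plot for the 5 tiled regions of Nr3c1, Fkbp5 and Crh, with the log2 ratio of bound to input DNA, array median at 0, against distance from the region's start in bp. Filled circles are probes above background in each channel on every array, open circles other probes, red crosses probes dark in both channels, grey lines the range over arrays and black bars the means of 500 bp stretches. The second Nr3c1 region passes from 1.11 in its second stretch to -1.65 in its sixth, while the stretch means of the first Fkbp5 region lie between 0.80 and 1.36.

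Counted over the 34 stretches of 500 bp with at least 3 probes, 16 were lower, 8 higher and 10 not past the test, against 34.4% lower and 26.5% higher over the 76462 stretches of the array. The lower ones were 13 of 17 at Bdnf and 3 of 10 at Nr3c1, with none of 4 at Fkbp5 and none of 3 at Crh. The higher ones were 1 at Bdnf, 2 at Nr3c1, 3 at Fkbp5 and 2 at Crh.

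**Figure D3:**
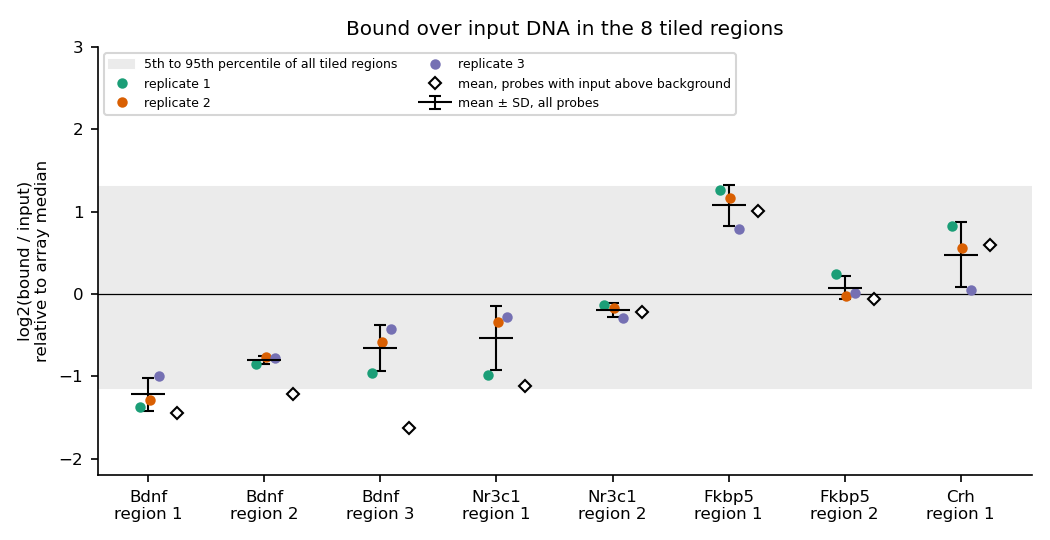
Log2 ratio of bound to input DNA, array median at 0, for each of the 8 tiled regions. Points are the 3 arrays, bars the mean ± SD, open diamonds the mean over probes with input above background, and the grey band the 5th to 95th percentile of all tiled regions, -1.15 to 1.30. The first Bdnf region lies below the band at -1.22, the other Bdnf regions and the first Nr3c1 region below zero within it, and the first Fkbp5 region near its upper edge at 1.08.

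Averaged over all probes of a gene, Bdnf was at -1.10, -0.97 and -0.82, a mean of -0.97 ± 0.14. Nr3c1 was at -0.41, -0.23 and -0.29, a mean of -0.31 ± 0.10. Fkbp5 was at 0.84, 0.67 and 0.47, a mean of 0.66 ± 0.19, and Crh, with 1 region, at its 0.48 ± 0.40. Bdnf was lowest on each of the 3 arrays and Nr3c1 second lowest, and Fkbp5 lay above Crh by 0.18 ± 0.21, within their spread. Bdnf minus Nr3c1 was -0.66 ± 0.11, Bdnf minus Fkbp5 -1.62 ± 0.32 and Bdnf minus Crh -1.44 ± 0.54. Nr3c1 minus Fkbp5 was -0.97 ± 0.25 and Nr3c1 minus Crh -0.79 ± 0.45. For these 6 differences the exact two-sided permutation test that flips signs over arrays can give no p below 0.25, and it gave 0.25 for each, also after Benjamini-Hochberg adjustment.

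**Figure D4:**
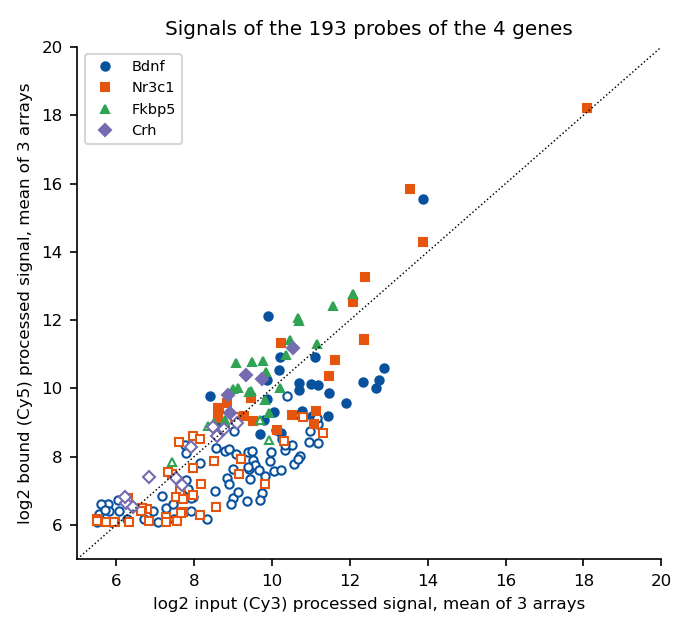
Log2 processed signal of input DNA (horizontal axis) against that of bound DNA (vertical axis), as the mean over 3 arrays, for each of the 193 probes, with 1 colour and marker shape per gene. Filled points have bound DNA above background on all 3 arrays, open points do not, and the dotted line marks equal signals. Bdnf points fall mostly below the line, and those of the first Fkbp5 region, where all 42 bound measurements were above background, above it.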

How the data were processed

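Bound and input DNA of 3 pools were measured on 3 two-colour arrays of 420288 spots, 4474 of them controls. Per the file headers, the deposited intensities are processed signals of Agilent Feature Extraction 10.7.3.1 on mm9, background-subtracted and scaled by 1 linear factor per dye. Per the file headers, the log10 ratio column is red over green processed signal. The authors' deposited series matrix gives log2 ratios with a median of -0.97 on each array; they tracked background-subtracted medians of bound over input (r of at least 0.999), and how they were centred is not stated in the sources used.

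For each spot not flagged as an outlier, log2 of processed bound to input signal was computed, averaged over spots of a probe and centred on each array's median (-0.19, -0.19 and -0.09 before centring). No loess or quantile step was used. Regions, their sides, pairs and probes were tested with limma 3.58.1 (R 4.3.3) against 0, with Benjamini-Hochberg adjustment over the whole array. Sides were split at a region's midpoint, with at least 3 probes on each. The fit shares variance over all features. Scripts were tested on simulated data. Each region of the 4 intervals is named, and within a region the highest and lowest probe above background in both channels. The lower probe of the second Fkbp5 region and the further higher probes of the second Bdnf region were named after their values were seen. The 500 bp stretches and the probes set against their neighbours were added after values were seen. The members, lists and tests were chosen with earlier results of these data known. Titles number the arrays 1 to 3 while each description gives replicate 1. The titles were followed, and if arrays shared a pool, SDs and p-values cover the spread between arrays alone. The alternative with normexp background correction used spot and background medians, since mean signals were not used here. A further gene list needing mm9 annotation was not analysed here. Each array lay on its own slide, so slide could not be a block. The number of arrays limits the precision.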

Additional observations from a re-analysis of the deposited data

How the results depend on the processing

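With 15 alternatives, the first and second Bdnf regions and the first Fkbp5 region kept their calls in each (-1.94 to -0.50, -1.52 to -0.41 and 0.36 to 1.37), and so did the third Bdnf and the first Nr3c1 region in the 14 that gave a value (-1.63 to -0.14 and -1.25 to -0.19). The differences between sides of the first Bdnf region (0.52 to 1.21) and the second Nr3c1 region (-2.10 to -0.71), and between the Fkbp5 regions (-1.11 to -0.44), also kept theirs. The cause of the changes below was not tested. No paired comparison between groups was possible because there was 1 group, and the slide block was not run. Bound with input DNA, sides and regions were each compared within arrays.

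With the mode as zero 8.66% of all regions were higher and 76.9% lower. Among the regions here 1 was higher in place of 2 and 6 lower in place of 4, the second Nr3c1 region among them at -0.92. Of the 34 stretches 1 was higher in place of 8 and 26 lower in place of 16. The share of all stretches called with that zero is not given here. Higher probes were then 2 of 95 at Bdnf, 1 of 58 at Nr3c1, 4 of 24 at Fkbp5 and 0 of 16 at Crh, against 7.8% of all probes. Of the 24 Fkbp5 probes 4 were lower, against 41.1% of all probes. The second Fkbp5 region stood at -0.64 and Crh at -0.24. Regions whose sides rose were 2 in place of 1 with normexp, loess, both channels above background, input above background, and the series matrix with that input filter, and those that fell 1 in place of 2 with the series matrix, joining within 1000 bp or medians over probes. With both channels above background fewer features could be tested. Of the 11 stretches with a value 2 were lower, again with no share of all stretches to set beside them. Lower probes were 17 of 26 at Bdnf, 8 of 21 at Nr3c1 and 0 of 18 at Fkbp5, against 22.3% of all such probes. The 10 higher Bdnf probes became 4 with normexp or the scanner's log ratio, 6 with the series matrix or loess, 6 with both channels and 3 with input above background, 4 without dark probes and 5 with the series matrix and input filter. The share of all probes called higher was 18.1% with normexp, 18.7% with the scanner's log ratio, 27% with the series matrix and 18.5% with loess. Among kept probes it was 49.4% with both channels and 28.9% with input above background. Without dark probes it was 22.9%, and with the series matrix and input filter 40.1%. Normexp gave 5 higher Nr3c1 and 2 lower Fkbp5 probes, and the series matrix with the input filter 9 lower Nr3c1 probes. Of all tested probes 22.9% were lower under either setting. Leaving out 1 replicate gave 1 to 2 higher regions and 1 to 1 falling sides, with 2 to 5 higher probes at Bdnf, 2 to 3 at Nr3c1, 5 to 8 at Fkbp5 and 0 to 1 at Crh, and with 10 to 15 lower at Nr3c1 and 0 to 1 at Fkbp5. Without replicate 1, 2 or 3 the shares of all probes were 15.4%, 10.4% or 13.3% higher and 21.1%, 14.3% or 15.2% lower. Of all regions 26.3%, 23% or 27% were then higher. The shares of all regions whose sides rose or fell are given for the main setting alone, at 26.7% and 25.9%.

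The second minus the first Bdnf region (0.42) was 0.0876 with normexp, 0.23 with the series matrix, 0.36 with loess, -0.29 with both channels and 0.24 with input above background, 0.42 with joining within 300 bp (limma adjusted p = 0.0551), 0.36 without dark probes, 0.22 with the series matrix and input filter, and 0.37 to 0.52 without 1 replicate. The third minus the second (0.14) was 0.26 with normexp, -0.44 with the series matrix, -0.42 with input above background, -0.18 without dark probes and -0.60 with the series matrix and input filter. The third minus the first (0.56) was -0.21, -0.18, 0.18 and -0.38 under the last 4 of these, and 0.49 to 0.64 without 1 replicate. The Nr3c1 regions (0.34) differed by 0.86 with the series matrix, 1.25 with both channels and 0.90 with input above background, 0.85 with medians over probes and 0.78 with the series matrix and input filter. Fkbp5 minus Crh turned to -0.0154 with loess, -0.13 with both channels and -0.0132 with input above background.

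Signs and calls also changed elsewhere. The difference between sides of the first Fkbp5 region no longer passed with the series matrix (-0.35) or medians over probes (-0.50), and that of the second passed with normexp (0.23) and loess (0.62). The sides of the second Bdnf region differed by 0.18 with the series matrix, 1.31 with both channels, 0.64 with input above background and 0.71 with the series matrix and input filter, and those of the first Nr3c1 region by -0.15 with the series matrix. The second Nr3c1 region was at 0.27 with both channels, 0.14 with medians over probes and 0.18 with the series matrix and input filter. The second Fkbp5 region was called higher with loess (0.42) and the series matrix (0.29), and was at -0.025 with normexp, -0.0652 with input above background and -0.005 to 0.12 without 1 replicate. The sides of Crh differed by 0.0223 with normexp, 0.0121 with loess, 0.39 with input above background, 0.0237 without dark probes, 0.28 with the series matrix and input filter and -0.18 to 0.14 without 1 replicate. Crh was at 0.28 with the series matrix (limma adjusted p = 0.139). The settings without dark probes and with the series matrix and input filter were chosen after seeing the data. Signal over background limits the probes that are dark in 1 or both channels.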
